A study of Mus musculus with 4 samples.

Results

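The genes described here are the 9 genes of the MHC class II pathway of antigen presentation: H2-Aa, H2-Ab1 and H2-Eb1, which encode class II chains, H2-DMa and H2-DMb1, H2-Oa and H2-Ob, Cd74 and Ciita. They are 9 of the 32285 genes in each matrix and were chosen by function. Their UMIs (unique molecular identifiers, each standing for 1 captured transcript) were summed in B cells, dendritic cells (DC), monocytes, macrophages and leukaemia cells, which were gated on the markers carried by each cell. Whole bone marrow (BM) and spleen cells came from C57BL/6J mice aged 6 to 8 weeks that had been transplanted with MA9 leukaemia, a mouse model of acute myeloid leukaemia driven by the fusion of MLL to AF9. Doxycycline, given to all mice in drinking water for 7 days, switched on a hairpin RNA that targets Prmt9 in the leukaemia cells of the shPrmt9 groups, and those of the Ctrl groups served as the control. The hairpin was in the transplanted cells, so cells of the host did not carry it. There was 1 library for each of the 4 groups, named BM-Ctrl and Spleen-Ctrl for the control and BM-shPrmt9 and Spleen-shPrmt9 for the hairpin, each from a representative mouse per the study's methods. No test between groups was possible, and the ratios below compare libraries, not conditions.

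MHC class II molecules are pairs of an alpha and a beta chain that carry peptides of taken-up proteins to the cell surface, where CD4+ T cells read them. B cells, DCs and macrophages are the cells best known for it. The invariant chain, encoded by Cd74, fills the groove of a new class II molecule and leads it to the endosome, where H2-DM swaps the remnant of the invariant chain for peptide, and H2-O holds H2-DM back. Ciita encodes the coactivator that switches on the other members through the factors bound to their promoters. In mice of this strain a promoter deletion keeps H2-Ea silent, so H2-Aa and H2-Ab1 form the class II molecule at the surface, and H2-Eb1 is transcribed with no partner chain.

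Of the 9 genes, 7 lie side by side in the class II region of chromosome 17. In GRCm38 coordinates H2-Oa (ENSMUSG00000024334) runs from 34092340 to 34095234, H2-DMa (ENSMUSG00000037649) from 34119541 to 34139101, H2-DMb1 (ENSMUSG00000079547) from 34153072 to 34160230, H2-Ob (ENSMUSG00000041538) from 34238903 to 34254414, H2-Ab1 (ENSMUSG00000073421) from 34257689 to 34269419 and H2-Eb1 (ENSMUSG00000060586) from 34305867 to 34316674, all on the plus strand. H2-Aa (ENSMUSG00000036594) runs from 34282744 to 34287823 on the minus strand. Ciita (ENSMUSG00000022504) lies on the plus strand of chromosome 16 from 10480059 to 10528418, and Cd74 is ENSMUSG00000024610. The near copies H2-DMb2 (ENSMUSG00000037548) and H2-Eb2 (ENSMUSG00000067341) were counted apart from H2-DMb1 and H2-Eb1, and reads may have been split between them in a way the counts do not show.

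Class II promoters are known for a shared X box and Y box, the sites through which Ciita acts. RefSeq promoters of GRCm38.p6 were found for 6 members and searched on both strands, over the 250 bases before the start, for GNAAC followed by GATTGG after 20 to 30 bases. H2-Oa, H2-DMb1, H2-Ob, H2-Aa and H2-Eb1 held the pair, as did the copy H2-Eb2. The sequences are shown with both motifs in capitals and 12 bases on either side. Whether the members share control through these sites in the cells studied was not tested.
H2-Oa, chr17:34092291-34092352, plus strand: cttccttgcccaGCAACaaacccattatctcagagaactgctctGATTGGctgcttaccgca
H2-DMb1, chr17:34153085-34153146, plus strand: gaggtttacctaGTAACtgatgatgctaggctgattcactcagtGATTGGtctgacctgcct
H2-Ob, chr17:34238806-34238864, plus strand: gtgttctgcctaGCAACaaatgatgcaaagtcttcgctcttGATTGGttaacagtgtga
H2-Aa, chr17:34287855-34287916, minus strand: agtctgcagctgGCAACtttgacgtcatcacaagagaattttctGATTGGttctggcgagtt
H2-Eb1, chr17:34305764-34305824, plus strand: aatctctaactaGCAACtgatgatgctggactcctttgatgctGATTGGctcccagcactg
H2-Eb2, chr17:34325531-34325591, plus strand: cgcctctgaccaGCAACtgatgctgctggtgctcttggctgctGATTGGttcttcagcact
The 2 motifs stood 27 bases apart in H2-Oa, H2-DMb1 and H2-Aa, 26 in H2-Eb1 and H2-Eb2 and 24 in H2-Ob. The pair ended 39 bases before the start in H2-Oa, 57 in H2-DMb1, 53 in H2-Ob, 44 in H2-Aa and 55 in H2-Eb1. Of 32851 promoters, 181 (0.551%) held the pair, while GATTGG on either strand, with or without GNAAC, was in 14.6%. The pair was not in the promoters listed for H2-DMa or in that of the copy H2-DMb2, and H2-Ab1 and Ciita had no promoter to search.

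BM-Ctrl held 9746 barcodes and 171461718 UMIs, BM-shPrmt9 11315 and 188030429, Spleen-Ctrl 9115 and 84009744, and Spleen-shPrmt9 8648 and 109555157. After filters 8901, 10175, 8306 and 7545 cells were kept, with median depths from 6268 to 10377 UMIs, and any 2 libraries shared 15 to 35 barcodes. Prmt9 itself was at 10.5 CPM (UMIs of the gene per 1000000 UMIs of the cells summed) over all cells of BM-Ctrl, 6.91 in BM-shPrmt9, 13 in Spleen-Ctrl and 7.09 in Spleen-shPrmt9. In leukaemia cells of the marrow Prmt9 was at 11.2 CPM (10.5–11.9) in Ctrl and 6.29 (5.81–6.81) in shPrmt9. In B cells, host cells by the design, it was at 12.6 and 13.3 CPM in the marrow and at 13 (12–14) and 9.66 (8.57–10.8) in the spleen, so it was lower in spleen B cells of shPrmt9 by more than counting error. Outside leukaemia cells, the Y-linked genes Ddx3y, Uty, Kdm5d and Eif2s3y had 0 UMIs in BM-Ctrl and 1 in BM-shPrmt9 but 15485 in Spleen-Ctrl and 14446 in Spleen-shPrmt9. The marrow and spleen libraries of a group therefore did not come from the same animal, and tissue and animal cannot be told apart.

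In BM-Ctrl 1147 cells were B cells (12.9%) and in BM-shPrmt9 105 (1.03%), while the spleens held 5656 (68.1%) in Ctrl and 1457 (19.3%) in shPrmt9. The gate asked for at least 4 of 9 markers, Cd79a and Ms4a1 among them, and each of the 9 was detected in at least 10% of these cells in each library. Conventional DCs were rare, with 13, 22, 15 and 18 cells in the same order of libraries. Fscn1, a gene of DCs that leave tissue for lymph nodes, was detected in 4 of the 13 DCs of BM-Ctrl, but in 21 of 22, 14 of 15 and 17 of 18 in the other libraries. Of 16 DC markers, 14 were detected in at least 10% of the DCs of BM-Ctrl and 7 in each other library. In those other libraries Itgax, Xcr1, Clec9a and Cd209a had 0 UMIs in the DCs, which therefore do not stand for all conventional DCs. Plasmacytoid DCs, the type I interferon producers marked by Siglech, numbered 120, 25, 4 and 0. Monocytes numbered 492, 209, 1 and 3, so only those of the marrow are compared. Macrophages were 12, 98, 14 and 77 cells with monocyte markers at high levels, some of which the gate itself asked for. Markers of resident tissue macrophages such as Cd5l, Cd163 and Vsig4 were at or near 0, so these cells are named by the gate alone. Leukaemia cells, gated on at least 3 genes of that programme, Hoxa9 and Hoxa10 among them, numbered 1498, 1846, 17 and 128.

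In BM-Ctrl the class II chains and Cd74 were high in B cells, DCs and the gated macrophages, lower in monocytes and near the level of cells that do not present antigen in leukaemia cells, whereas H2-DM was well above that level there. Values in parentheses are exact 95% intervals and cover counting error only. H2-Aa, the alpha chain, was counted in BM-Ctrl at 4500 CPM (4202–4814) in conventional DCs, 2528 (2273–2804) in macrophages, 1611 (1580–1642) in B cells, 1603 (1536–1671) in plasmacytoid DCs, 67.1 (61.9–72.6) in monocytes and 1.99 (1.71–2.30) in leukaemia cells. Its level in erythroid cells, which do not present antigen, was 4.40 CPM (2.52–7.15), above that of the leukaemia cells. In H2-Aa the intervals of B cells and plasmacytoid DCs overlapped, and those of every other neighbouring pair of the 6 classes did not. These intervals leave out the spread between cells, so the order of the classes was not tested. In a clustering made without the 9 genes, 9 of the 13 conventional DCs lay in cluster 33, led by genes of plasmacytoid DCs. Their summed level of the 9 genes was 30795 CPM, against 3958 in the 3 cells of cluster 37.

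The beta chains followed the same order with small shifts. H2-Ab1, the partner of H2-Aa, was at 2975 CPM in conventional DCs of BM-Ctrl, 1624 in macrophages, 1065 in plasmacytoid DCs, 877 in B cells, 84.9 in monocytes and 1.53 in leukaemia cells. H2-Eb1 was at 2800, 1398, 758, 1002, 37.6 and 1.36 CPM in the same order of classes, so B cells stood above plasmacytoid DCs for H2-Eb1 and below them for H2-Ab1. Cd74 was the member with the highest counts in every class but the leukaemia cells, at 11689 CPM in conventional DCs, 7179 in B cells, 6804 in plasmacytoid DCs, 4301 in macrophages, 354 in monocytes and 16.1 in leukaemia cells of BM-Ctrl. Cd74 UMIs per H2-Aa UMI were 4.46 in B cells and 4.25 in plasmacytoid DCs, against 2.60 in conventional DCs and 1.70 in macrophages. These are 3′ tag counts, which do not scale with transcript length, but capture can differ between genes.

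The genes of peptide exchange were ordered differently. H2-DMb1 was at 584 CPM (480–704) in conventional DCs, 341 (310–373) in plasmacytoid DCs, 134 (80.8–210) in macrophages, 84.9 (79.0–91.0) in monocytes, 38.1 (36.8–39.4) in leukaemia cells and 33.5 (29.2–38.2) in B cells of BM-Ctrl. B cells, well above monocytes in H2-Aa, were thus the lowest of the 6 classes in H2-DMb1, where their interval met that of the leukaemia cells. H2-DMa, its partner, was at 701 CPM in conventional DCs, 522 in plasmacytoid DCs, 187 in B cells, 147 in monocytes, 98.9 in macrophages and 33.9 in leukaemia cells. H2-DMa UMIs per H2-DMb1 UMI were 5.58 in B cells, 1.73 in monocytes, 1.53 in plasmacytoid DCs and 0.890 in leukaemia cells. In B cells the copy H2-DMb2 was at 166 CPM, above H2-DMb1, while in leukaemia cells it was at 2.2 CPM.

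The ratio of H2-O to H2-DM was higher in B cells than in the other classes of BM-Ctrl compared here. H2-Ob, its beta chain, was at 128 CPM (119–137) in B cells of BM-Ctrl, 42.5 (18.4–83.8) in conventional DCs, 28.4 (20.2–38.9) in plasmacytoid DCs, 14.1 (1.71–51.0) in macrophages, 6.40 in monocytes and 4.06 in leukaemia cells. H2-Oa was at 117 CPM (99.3–136) in plasmacytoid DCs, 106 (64.9–164) in conventional DCs and 102 (94.0–110) in B cells, whose intervals overlapped, then 14.1, 10.4 and 7.47 in macrophages, monocytes and leukaemia cells. H2-O UMIs per H2-DM UMI were 1.04 in B cells of BM-Ctrl, 0.771 in BM-shPrmt9, 1.01 in Spleen-Ctrl and 0.898 in Spleen-shPrmt9. The same ratio in BM-Ctrl was 0.168 in plasmacytoid DCs, 0.160 in leukaemia cells, 0.116 in conventional DCs and 0.0726 in monocytes, all below the lowest B cell value. H2-DM stands here for H2-DMa and H2-DMb1. With the copy H2-DMb2 counted in, the B cell values were 0.594, 0.472, 0.626 and 0.573, and those of the other classes went from 0.0716 in monocytes to 0.158 in plasmacytoid DCs, so the order held at a smaller difference.

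Ciita, the coactivator, was at 175 CPM (121–246) in conventional DCs of BM-Ctrl, 120 (69.9–192) in macrophages, 104 (87.2–122) in plasmacytoid DCs, 53.4 (47.9–59.3) in B cells and 3.47 (2.38–4.90) in monocytes. Among leukaemia cells it had 8 UMIs in BM-Ctrl, 5 in BM-shPrmt9 and 0 in both spleens.

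**Figure D1:**
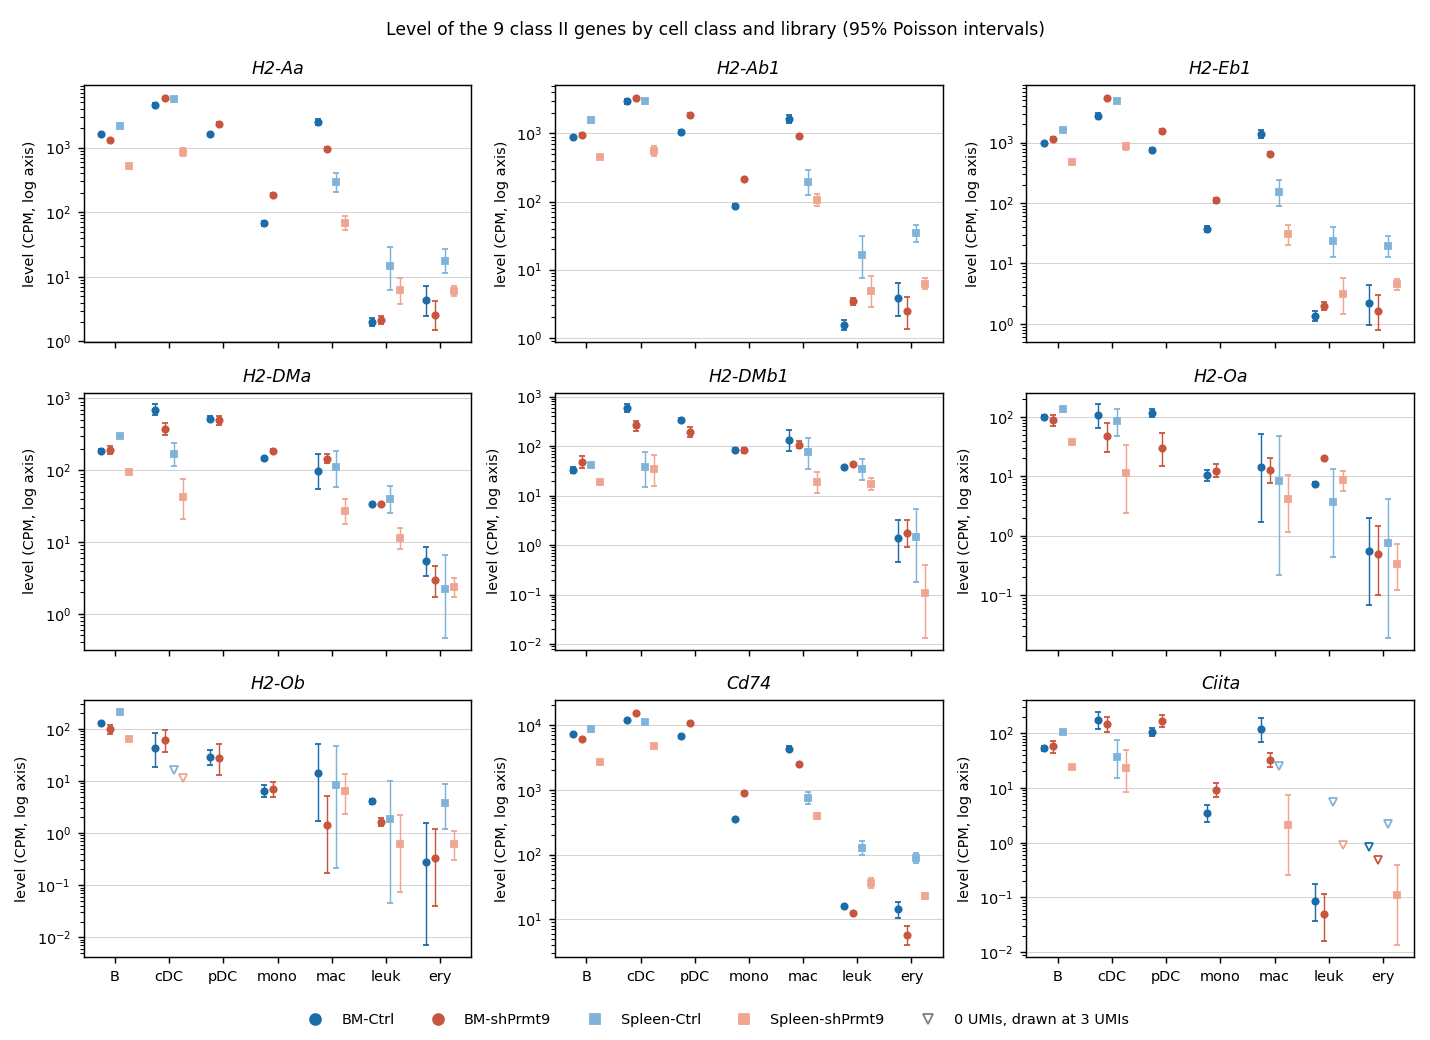
Level of each of the 9 genes (CPM, log axis) in 7 cell classes of the 4 libraries, where they had at least 10 cells (B, B cells; cDC and pDC, conventional and plasmacytoid DCs; mono, monocytes; mac, macrophages; leuk, leukaemia cells; ery, erythroid cells). Circles are bone marrow and squares spleen, bars are exact 95% intervals of the count, and open triangles mark 0 UMIs, drawn at the level of 3 UMIs. H2-Aa of BM-Ctrl fell from 4500 CPM in conventional DCs to 1.99 in leukaemia cells, whereas H2-DMb1 was 33.5 in B cells and 38.1 in leukaemia cells. Most of these conventional DCs lay in a cluster led by genes of plasmacytoid DCs.

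The design asks next how the members differed between shPrmt9 and Ctrl in each class and tissue, over 10 comparisons in all. A gene was counted as higher or lower past 1.5-fold with at least 20 UMIs over both libraries. In B cells of the bone marrow none of the 9 members passed this threshold, while 10.8% of 10308 genes were higher and 14.9% lower. H2-Aa was at 1611 CPM in BM-Ctrl and 1311 in BM-shPrmt9, a ratio of 0.814 (0.770–0.859). H2-Ab1 was at 877 and 959 CPM (1.09, 1.02–1.17), and H2-Eb1 at 1002 and 1158 CPM (1.15, 1.09–1.23). Cd74 was at 7179 and 6123 CPM, 0.853 of the control (0.831–0.875). Over all marrow B cells, alpha chain and invariant chain were thus slightly lower and both beta chains slightly higher, each by more than counting error.

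For the exchange genes of marrow B cells, H2-DMa was at 187 CPM in BM-Ctrl and 191 in BM-shPrmt9 and H2-DMb1 at 33.5 and 48.7, which is 1.46-fold (1.06–1.96) and the largest difference among the 9. H2-Oa was at 102 and 87.6 CPM, H2-Ob at 128 and 97.4 and Ciita at 53.4 and 57.5. Intervals of the ratios of H2-DMa, H2-Oa and Ciita covered 1. The summed level of the 9 genes was 11173 CPM in BM-Ctrl and 10032 in BM-shPrmt9, a ratio of 0.898 (0.880–0.916), and the members' median log2 ratio was 0.04 beside -0.05 over all genes. As UMIs per cell the direction turned, with 63.5 in BM-Ctrl and 108 in BM-shPrmt9 (ratio 1.70), and B cells of BM-shPrmt9 had a median of 8955 UMIs against 4764.

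The B cells of the 2 marrows lay in part in different clusters, which were made without the 9 genes. Cluster 24 held 31.2% of the B cells of BM-Ctrl at a sum of 21314 CPM and none of BM-shPrmt9, whereas cluster 19, led by Rag1 and Sox4, held 34.4% and 51.4%. In the clusters with at least 10 B cells of each marrow the ratio of the sum was 1.30 (1.24–1.35) in cluster 19, 1.45 (1.26–1.67) in cluster 35 and 1.01 (0.98–1.04) in cluster 16, all above the 0.898 over all B cells. In clusters 16, 19 and 35 H2-Aa was at ratios of 1.05, 1.54 and 1.72, so it was lower in none of them. Cd74 was at 0.908, 1.24 and 1.68, H2-Ab1 at 1.27, 1.61 and 1.25 and H2-Eb1 at 1.27, 2.13 and 1.94. By depth the ratio of the sum was 0.164 in cells of 2000 to 5000 UMIs (640 and 10 cells), 0.962 in those of 5000 to 10000 (400 and 48) and 2.43 in those of 10000 to 20000 (82 and 37). Granulocyte markers summed to 3474 CPM in B cells of BM-Ctrl and 15638 in those of BM-shPrmt9. The parts of clusters, depth and granulocyte RNA in the marrow ratios were not tested.

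In B cells of the spleen all 9 members were lower in Spleen-shPrmt9, where 28.9% of 12968 genes were lower and 11.8% higher. H2-Aa was at 2142 CPM in Spleen-Ctrl and 526 in Spleen-shPrmt9, or 0.245 of the control (0.241–0.25). H2-Ab1 was at 1564 and 452 CPM (0.289) and H2-Eb1 at 1625 and 487 (0.30). Cd74 was at 8719 and 2675 CPM, a ratio of 0.307 (0.304–0.309). The 2 genes at the ends of the order were Ciita, the coactivator, at 106 and 24.3 CPM (0.228, 0.211–0.247), and H2-DMb1, at 40.8 and 18.4 CPM (0.452, 0.410–0.497).

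Between them lay H2-DMa with 299 and 93.4 CPM (0.313), H2-Oa with 137 and 38.2 CPM (0.279) and H2-Ob with 207 and 62.3 CPM (0.301). The copies H2-DMb2 and H2-Eb2 stood at 0.302 and 0.232 of the control. The median log2 ratio of the members was -1.74, beside -0.22 over all genes compared. The sum was 14840 CPM in Spleen-Ctrl and 4377 in Spleen-shPrmt9 (0.295, 0.293–0.297), but 123 and 89.0 UMIs per cell, a ratio of 0.723 that did not pass 1.5-fold. Spleen B cells had a median of 6360 UMIs in Ctrl and 16659 in shPrmt9.

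**Figure D2:**
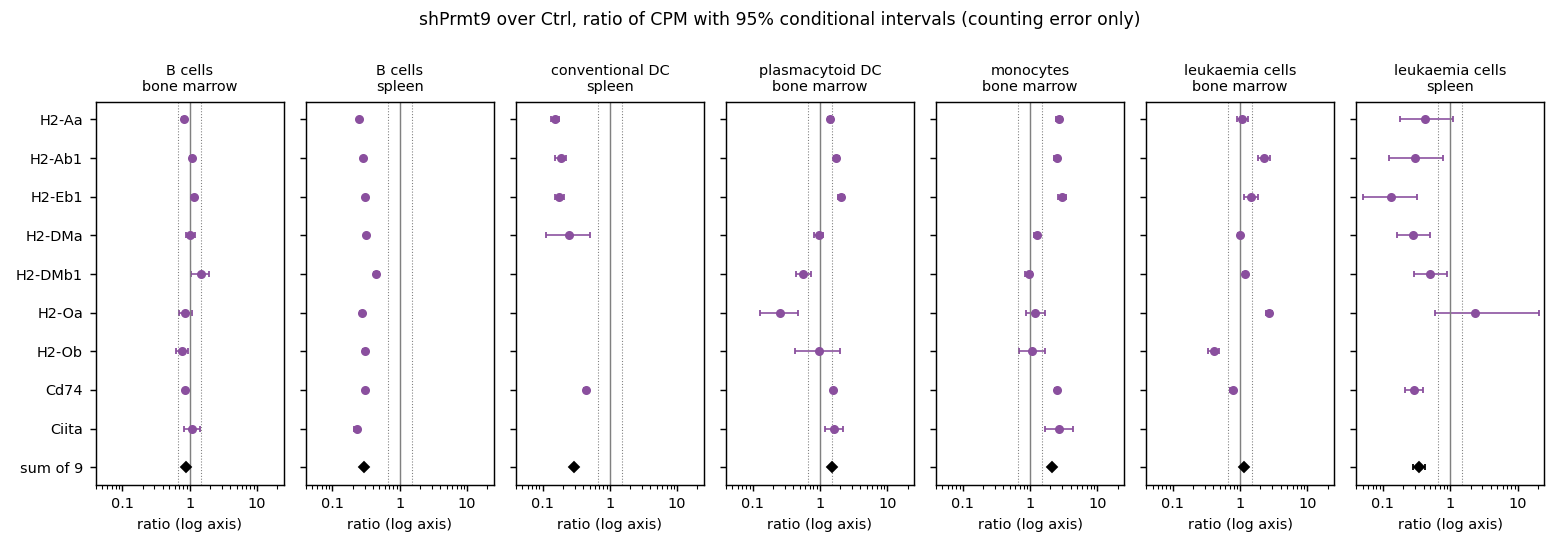
Ratio of the level in shPrmt9 to that in Ctrl (log axis) for each member in 7 comparisons, with exact 95% intervals, dotted lines at 1.5-fold and black diamonds for the sum of the 9 genes. All 9 genes of spleen B cells lie left of the lower line, and none of those of marrow B cells lies past either line.

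The difference in spleen B cells was not spread evenly over the cells. The summed level per cell had a median of 17318 CPM in Spleen-Ctrl, with 25% of cells under 12503, and a median of 4534 CPM in Spleen-shPrmt9, with 25% of cells under 764 and 25% over 11809. Cluster 18, led among B cells by Phlda3, Cdkn1a and Il6, held 476 B cells of Spleen-shPrmt9, with a median of 27676 UMIs and a summed level of 865 CPM. Without these cells the ratio of the sum was 0.517.

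Cluster 13, led by the interferon-stimulated genes Rsad2, Ifit1 and Ifit3, held 643 B cells of Spleen-shPrmt9 at 7600 CPM and 32 of Spleen-Ctrl at 13630 CPM. Cluster 0, led by Snx29 and March1, held 4060 B cells of Spleen-Ctrl and 11 of Spleen-shPrmt9, so most B cells of the 2 spleens lay in different clusters. Cluster 16, led by Cd300lf, Apoe and Bhlhe41, was the only one with over 100 B cells of each spleen, 309 and 208. There the sum was 13950 CPM in Spleen-Ctrl and 11733 in Spleen-shPrmt9, a ratio of 0.841 (0.830–0.852) that did not pass 1.5-fold. Within cluster 16, H2-DMb1 was at 1.5 times the control (1.18–1.90), H2-Ab1 at 1.04 and H2-Eb1 at 0.974, while Ciita was at 0.644 and H2-Oa at 0.665.

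The other clusters with at least 10 B cells of each spleen gave lower ratios of the sum than cluster 16. The ratio was 0.396 (0.383–0.409) in cluster 7 (1152 and 42 cells), 0.558 (0.540–0.576) in cluster 13 and 0.229 (0.187–0.282) in cluster 26 (15 and 38 cells), each past 1.5-fold. It was 0.682 (0.636–0.730) in cluster 0 and 0.790 (0.757–0.824) in cluster 35 (41 and 30 cells). The sum was thus lower in Spleen-shPrmt9 in all 6 shared clusters, by amounts that differed between them.

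Depth, marker levels and an interferon response moved with the same groups. The summed level fell with the depth of the cell within Spleen-Ctrl, from 20796 CPM in B cells of 2000 to 5000 UMIs to 5842 in those of at least 20000. Between the libraries the ratio was 0.402 in cells of 2000 to 5000 UMIs (1197 and 36 cells), 0.736 in those of 5000 to 10000 (3137 and 278), 0.658 in those of 10000 to 20000 (1042 and 532) and 0.324 in those of at least 20000 (226 and 593). The sum was lower in Spleen-shPrmt9 in each of the 4 ranges, but the ranges are wide and do not match depth or clusters within them. The B cell markers themselves summed to 10496 CPM in these cells of Spleen-Ctrl and 6319 in Spleen-shPrmt9, and erythroid markers to 344 and 1919 CPM. Isg15, an interferon-stimulated gene, was at 29.9 CPM in B cells of Spleen-Ctrl and 396 in Spleen-shPrmt9, and at 19.3 and 222 in the marrow. The parts of depth, of the marker levels and of the interferon response in the class II ratios were not tested.

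**Figure D3:**
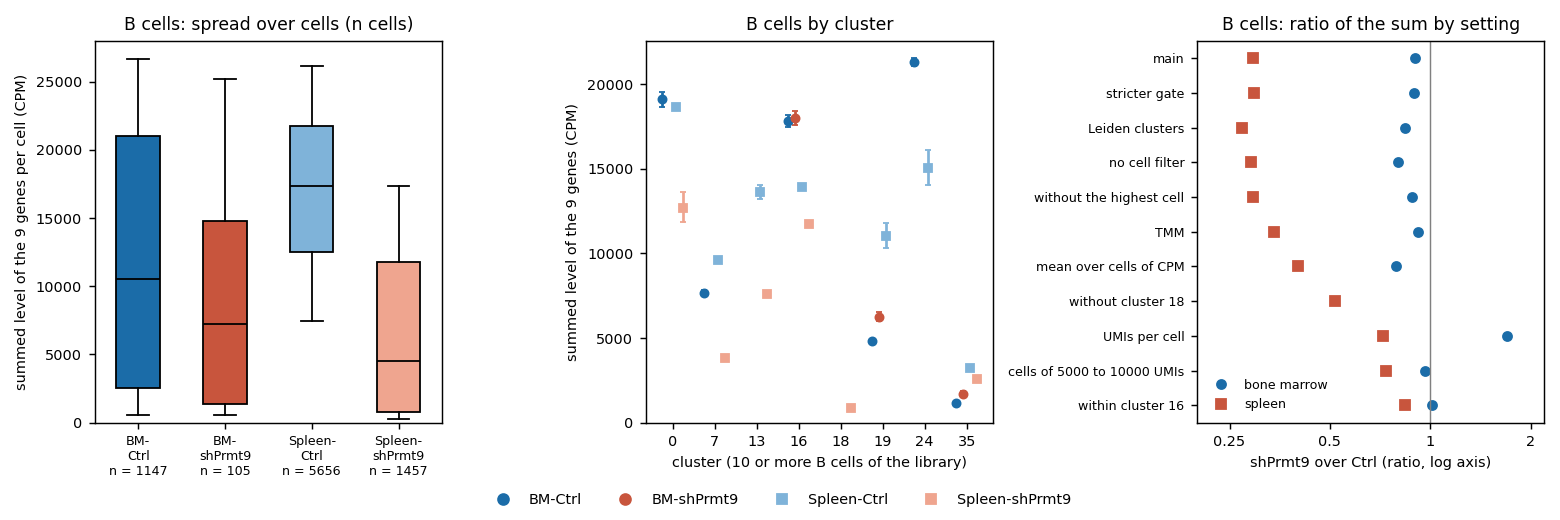
Summed level of the 9 genes in B cells: per cell (box from the 25th to the 75th percentile, line at the median, whiskers at the 10th and 90th), by cluster with exact 95% intervals (CPM), and as the ratio of shPrmt9 to Ctrl under 11 settings (log axis). The spleen ratio went from 0.295 over all B cells to 0.841 within cluster 16, and the marrow ratio from 0.787 as a mean over cells to 1.70 as UMIs per cell.

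Within the marrow B cells the levels differed by developmental stage. Precursor B cells, positive for genes such as Vpreb1 and Rag1 and negative for Ighd, had a summed level of 981 CPM in BM-Ctrl (145 cells) and 2529 in BM-shPrmt9 (22 cells). Mature B cells were at 14584 CPM (805 cells) and 13951 (54 cells). The mature cells were thus far above the precursors in both libraries, with a ratio between libraries of 0.957 for mature cells and 2.58 (2.31–2.88) for precursors. The precursors had a median of 4475 UMIs in BM-Ctrl and 8079.5 in BM-shPrmt9. Their ratio was not recomputed under other settings, and the parts of depth, granulocyte RNA and single cells in it were not tested.

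In the precursors H2-Eb1 was at 24.8 CPM in BM-Ctrl and 201 in BM-shPrmt9, H2-Aa at 41.8 and 269 and Cd74 at 664 and 1692, while H2-Ob was at 59.9 and 24.5. Of the 8 members compared there, 6 were higher and 1 lower, among 6038 genes of which 13.4% were higher and 19.7% lower, and their median log2 ratio was 0.92 beside -0.03 over all genes. Cd74 UMIs per H2-Aa UMI were 15.9 in precursors of BM-Ctrl and 4.37 in its mature B cells, so Cd74 was counted in cells where the chains were still low.

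The gated conventional DCs of the spleen all lay in cluster 37. Most were positive for Fscn1, and Itgax, Xcr1, Clec9a and Cd209a were not detected in them. Their summed level was 24651 CPM in 15 cells of Spleen-Ctrl and 7167 in 18 of Spleen-shPrmt9 (0.291, 0.275–0.307). H2-Aa was at 5565 and 854 CPM (0.153), H2-Ab1 at 2984 and 553 (0.185) and H2-Eb1 at 4870 and 865 (0.178). Cd74 was at 10902 and 4784 CPM (0.439, 0.409–0.471) and H2-DMa at 170 and 41.9 (0.247). All 5 members with enough counts were lower, among 2967 genes of which 15% were lower and 28.6% higher, with a median log2 ratio of -2.43 beside 0.16. The chains were lower than Cd74, so that Cd74 UMIs per H2-Aa UMI were 1.96 in Spleen-Ctrl and 5.60 in Spleen-shPrmt9.

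The remaining members of these DCs were sparse. H2-DMb1 was at 37.2 and 34.3 CPM, H2-Oa at 85.0 and 11.4 and Ciita at 37.2 and 22.9, each from 3 to 16 UMIs, and H2-Ob had 0 UMIs in both spleens, which allows up to 15.9 and 11.4 CPM at 3 counts. The cells of Spleen-shPrmt9 were uneven, with a median of 2784 CPM per cell against 23922 in Spleen-Ctrl, and 1 of the 18 cells held 37.8% of the members' UMIs. The ratio of the sum was 0.195 without that cell, 0.212 with the top cell of both libraries left out, 0.122 with a stricter gate (14 and 15 cells) and 0.449 with Leiden clusters in place of gates (38 and 44 cells). Erythroid markers summed to 319 CPM in the DCs of Spleen-Ctrl and 2253 in those of Spleen-shPrmt9, and their part was not tested.

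In the marrow the 2 libraries held different conventional DCs, and no ratio is given. Of the 13 cells of BM-Ctrl, 9 lay in cluster 33, led by genes of plasmacytoid DCs, while 21 of the 22 cells of BM-shPrmt9 lay in cluster 37. The sum was 23574 CPM in BM-Ctrl and 31000 in BM-shPrmt9, H2-Aa 4500 and 5858, H2-Ab1 2975 and 3256, H2-Eb1 2800 and 5512 and Cd74 11689 and 15476. H2-DMa was at 701 CPM in BM-Ctrl and 379 in BM-shPrmt9 and H2-DMb1 at 584 and 262, while Ciita was at 175 and 148. H2-Oa had 20 and 14 UMIs and H2-Ob 8 and 18. Chains and Cd74 were therefore listed at higher levels, and H2-DM at lower levels, in the Fscn1-positive cells of BM-shPrmt9.

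In plasmacytoid DCs of the marrow the chains, Cd74 and Ciita were higher in BM-shPrmt9 and the exchange genes were not. H2-Ab1 was at 1065 CPM in BM-Ctrl and 1868 in BM-shPrmt9 (1.75, 1.60–1.92), H2-Eb1 at 758 and 1554 (2.05, 1.85–2.27) and Cd74 at 6804 and 10760 (1.58, 1.52–1.64). Ciita was at 104 and 168 CPM (1.62, 1.18–2.2), and H2-Aa at 1603 and 2294, a ratio of 1.43 that did not pass 1.5-fold. Against these, H2-DMb1 was at 341 and 193 CPM (0.565, 0.433–0.728) and H2-Oa at 117 and 30.3 (0.259, 0.127–0.477).

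H2-DMa at 522 and 498 CPM and H2-Ob at 28.4 and 27.5 CPM had intervals that covered 1. In all, 4 of 9 members of plasmacytoid DCs were higher and 2 lower, among 7699 genes of which 12.9% were higher and 18.4% lower, and the sum was 11342 CPM in 120 cells and 17393 in 25 (1.53, 1.49–1.58). The median log2 ratio was 0.52 beside -0.05 over all genes. The sum lies next to the threshold, and it was 1.47 to 1.67 over the alternatives by CPM and 1.95 as UMIs per cell. Cluster 33 alone gave 1.59. B cell markers (Cd79a, Cd79b and Ighm) summed to 576 CPM in the plasmacytoid DCs of BM-Ctrl and 735 in those of BM-shPrmt9, and RNA with the B cell ratio of class II to these markers would hold 7.07% and 4.82% of the members' UMIs. Granulocyte markers summed to 1641 CPM in these cells of BM-Ctrl and 9827 in those of BM-shPrmt9, and the markers of plasmacytoid DCs to 9724 and 7414, and their part in the ratios was not tested.

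In monocytes of the marrow the class II chains, Cd74 and Ciita were also higher in BM-shPrmt9. H2-Aa was at 67.1 CPM in 492 cells of BM-Ctrl and 183 in 209 of BM-shPrmt9 (2.73, 2.47–3.03). H2-Ab1 was at 84.9 and 211 CPM (2.49), H2-Eb1 at 37.6 and 110 (2.94), Cd74 at 354 and 883 (2.49, 2.38–2.61) and Ciita at 3.47 and 9.37 (2.70, 1.69–4.35). H2-DMa, at 147 and 184 CPM, was 1.25-fold (1.15–1.36), and H2-DMb1, at 84.9 and 81.8 CPM, was 0.964-fold (0.855–1.09).

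H2-Oa at 10.4 and 12.4 CPM and H2-Ob at 6.40 and 6.88 in these monocytes differed by less than counting error. Thus 5 of 9 members were higher and 0 lower, among 11000 genes of which 12.8% were higher and 14.9% lower, and the sum was 796 and 1682 CPM (2.11, 2.05–2.18). With Leiden clusters in place of gates the ratio was 3.55 (571 and 280 cells). The median log2 ratio of the members was 1.31 beside -0.08 over all genes. H2-DM UMIs per class II chain UMI were 1.22 in BM-Ctrl and 0.527 in BM-shPrmt9.

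The monocytes differed most in a tail of cells with much class II RNA, and their medians differed as well. The summed level per cell had a median of 339 CPM in BM-Ctrl and 564 in BM-shPrmt9, and a 90th percentile of 1577 and 8019. After each cell was thinned to 2000 UMIs, H2-Aa was detected in 6.71% of monocytes of BM-Ctrl and 18.7% of BM-shPrmt9 (11% and 31.1% unthinned), and in 0.527% and 0.524% of granulocytes, which should lack it. Cluster 14 gave a ratio of 2.17 (2.09–2.25) and cluster 30 one of 2.14, while in cluster 34 it was 1.14 (0.989–1.30) with H2-Ab1 at 0.348. Monocytes had a median of 14240 UMIs in BM-Ctrl and 23360 in BM-shPrmt9, and granulocyte markers summed to 4755 and 13826 CPM. Cluster 34 held 20.3% of the monocytes of BM-Ctrl and 6.22% of those of BM-shPrmt9. The parts of depth, of clusters and of granulocyte RNA were not tested.

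Gated macrophages of the spleen had a summed level of 1592 CPM in 14 cells of Spleen-Ctrl and 653 in 77 of Spleen-shPrmt9 (0.410, 0.348–0.485). H2-Aa was at 295 and 69.0 CPM, H2-Ab1 at 194 and 105 and Cd74 at 750 and 390. All 6 members with enough counts were lower, among 5845 genes of which 23.4% were lower and 19.8% higher, with a median log2 ratio of -2.01 beside -0.08. This rested on 1 cell, which held 66.7% of the members' UMIs of Spleen-Ctrl. Without that cell the direction turned, at a ratio of 1.09, and with the top cell of both libraries left out the ratio was 0.885. Cells of cluster 29 alone, 12 and 74, gave 1.17 (0.887–1.56), while Leiden clusters in place of gates gave 0.140 (30 and 118 cells).

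In the marrow 41.7% (BM-Ctrl) and 58.2% (BM-shPrmt9) of the gated macrophages lay in cluster 14, led by genes of monocytes, and no ratio is given. Their sum was 10233 CPM in 12 cells of BM-Ctrl and 5316 in 98 of BM-shPrmt9, with H2-Ab1 at 1624 and 911 CPM, Cd74 at 4301 and 2498 and Ciita at 120 and 32.7. H2-DMa was at 98.9 and 145 CPM and H2-DMb1 at 134 and 107.

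Leukaemia cells of the marrow carried H2-DM well above granulocytes, while their class II chains were near or under the granulocyte levels. H2-DMb1 was at 38.1 CPM (36.8–39.4) in BM-Ctrl and 44.4 (43.1–45.7) in BM-shPrmt9, against 3.78 and 3.76 CPM in granulocytes and 1.38 and 1.79 in erythroid cells of the same libraries. H2-DMa was at 33.9 and 33.3 CPM, against 7.04 and 7.01 in granulocytes and 5.50 and 2.93 in erythroid cells. In BM-Ctrl H2-Aa was at 1.99 CPM, H2-Eb1 at 1.36 and Cd74 at 16.1, against 2.98, 2.41 and 16.3 in granulocytes, so Cd74 was about level. In BM-shPrmt9 they were at 2.15, 1.96 and 12.4 CPM, with intervals that overlapped those of granulocytes, at 2.04, 1.78 and 12.7. H2-DM UMIs per chain UMI were 14.7 in leukaemia cells of BM-Ctrl and 10.3 in BM-shPrmt9, beside 0.063 in B cells and 1.22 in monocytes of BM-Ctrl, with the copy H2-DMb2 not counted.

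The depth of the leukaemia cells, with medians of 59500 and 50322 UMIs, makes most of them positive for some H2-DM RNA, so shares were compared at 2000 UMIs per cell. H2-DMb1 was then detected in 6.28% of leukaemia cells of BM-Ctrl and 8.07% of BM-shPrmt9, against 0.611% of granulocytes and 0.201% of erythroid cells of BM-Ctrl. Unthinned, the shares of leukaemia cells were 75% and 79.4%. H2-Aa was detected in 0.467% and 0.542% of thinned leukaemia cells, close to the 0.527% and 0.524% of granulocytes. Its unthinned shares of leukaemia cells were 11.4% and 6.61%. Granulocytes were shallower, with medians of 4177 and 6908 UMIs. Like shares at unlike depth cannot show whether the H2-Aa of leukaemia cells was background, which was not tested.

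Between the 2 marrow libraries H2-Oa was at 7.47 CPM in BM-Ctrl and 20 in BM-shPrmt9 (2.68, 2.45–2.92), and H2-Ob at 4.06 and 1.63 (0.402, 0.332–0.484). Granulocytes had 1.65 and 2.34 CPM of H2-Oa and 0.472 and 0.838 of H2-Ob. The 2 chains of H2-O thus stood on opposite sides of the control. H2-Ab1 was at 1.53 and 3.43 CPM (2.24, 1.84–2.75), both under the granulocyte levels of 9.54 and 6.06.

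H2-DMa at 0.982 of the control, H2-DMb1 at 1.17 (1.11–1.22), Cd74 at 0.770 and H2-Eb1 at 1.44 did not pass 1.5-fold, nor did H2-Aa at 1.08. Of the 8 members compared in the marrow leukaemia cells 2 were higher and 1 lower, among 14078 genes of which 22.0% were higher and 16.6% lower, and the sum was 105 and 119 CPM (1.14, 1.11–1.17), with a median log2 ratio of 0.17 beside 0.02. Leukaemia cells of BM-Ctrl lay in clusters 9 and 21 and those of BM-shPrmt9 in clusters 5, 20 and 27, so a difference between libraries and between clusters cannot be told apart. H2-Oa was at 8.85 and 4.64 CPM in clusters 9 and 21 and at 26.1, 14 and 14.2 in clusters 5, 20 and 27, and H2-Ob at 4.56 and 2.81 against 1.64, 1.14 and 1.60, so these groups of clusters did not overlap.

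**Figure D4:**
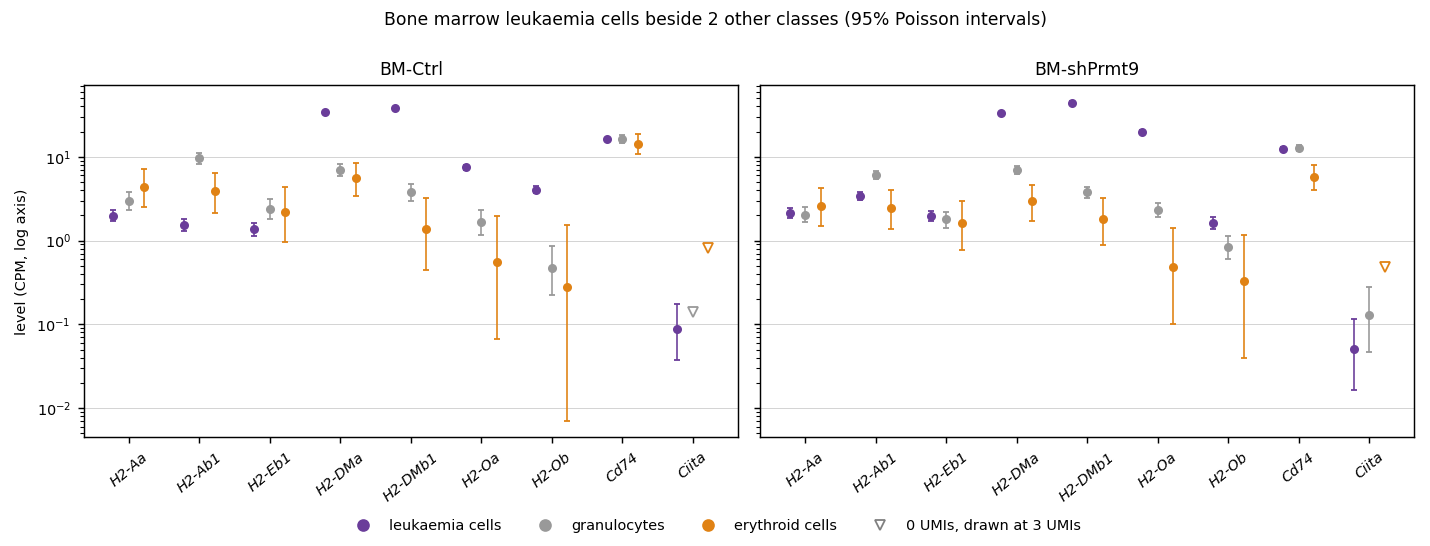
Level of the 9 genes (CPM, log axis) in leukaemia cells, granulocytes and erythroid cells of BM-Ctrl and BM-shPrmt9, with exact 95% intervals. H2-DMb1 of BM-Ctrl stood at 38.1 CPM in leukaemia cells and 3.78 in granulocytes, while H2-Aa stood at 1.99 and 2.98.

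In the spleen 17 leukaemia cells of Spleen-Ctrl and 128 of Spleen-shPrmt9 gave few UMIs. Granulocyte markers summed to 74413 and 188027 CPM in them, against 6779 and 32744 in the leukaemia cells of the marrow, and the leukaemia markers to 443 and 447 CPM, against 456 and 642. What the gate held in the spleen therefore differed from what it held in the marrow, and the part of granulocyte RNA in the ratios was not tested. The sum was 263 and 88.6 CPM (0.338, 0.275–0.415), near the level in cells that do not present antigen, as erythroid cells were at 168 and 43.4 CPM and granulocytes at 211 and 64.2. Cd74 was at 128 and 36.6 CPM and H2-DMb1 at 34.6 and 17.2. Of 7 members compared 6 were lower and 1, H2-Oa, was higher on 2 and 28 UMIs (2.36, 0.596–20.5), among 8001 genes of which 26.0% were higher and 27.2% lower, with a median log2 ratio of -1.74 beside -0.03. Ciita at 0 UMIs allows up to 5.47 and 0.923 CPM at 3 counts. RNA with the B cell ratio would hold 52.9% and 62.8% of these UMIs, and its part was not tested further.

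The rest of the pathway was read from 4 lists of known genes, whose counts stand beside the shares of all genes given above for the same cells. In spleen B cells the list of peptide loading and processing had 3 of 13 genes higher and 4 lower (median log2 ratio -0.32), with March1, the ligase that takes class II off the surface, at 96.6 and 14.4 CPM (0.15) and Ifi30, the lysosomal thiol reductase, at 436 and 161 (0.37), while Ctsz was at 258 and 493 (1.91) and March8 at 0.341 and 0.675 (1.98). The factors of class II transcription had 0 of 14 higher and 3 lower (median -0.44), with Kat2b at 0.49 and Pax5, which keeps B cell identity, at 209 and 122 CPM (0.58), and Nfyb at 1.06 and Nfyc at 1.30. Among genes of interferon gamma signalling and Ciita control 2 of 12 were higher and 8 lower (median -0.81). Prdm1, which silences Ciita in plasma cells, was at 7.47 and 19 CPM (2.54) and Zbtb46 at 2.65-fold, with Bcl6 at 31.6 and 6.82 CPM (0.22) and Socs1 at 337 and 114 (0.34). Of 5 uptake receptors 2 were higher and 2 lower (median -0.48), Clec4a2 at 3.03-fold and Fcgr3 at 1.67-fold, Clec4a1 at 0.53 and Ly75 at 0.54.

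In marrow B cells loading genes had 0 of 12 higher and 1, March1 with 67.8 and 39.8 CPM, lower (median log2 ratio 0.18), and transcription factors 0 of 14 higher and 1, Rfx5 with 15.5 and 9.74 CPM, lower (median -0.09). Interferon gamma genes had 2 of 12 higher and 2 lower (median -0.15), and uptake receptors 2 of 4 higher, Clec4a2 at 3.99-fold and Fcgr3 at 2.65-fold, and 0 lower (median 0.91). Prdm1 was at 1.61-fold, whereas Ifngr1, the interferon gamma receptor, was at 85.5 and 39.8 CPM (0.47) and Zbtb46 at 0.38. In spleen DCs loading genes had 4 of 9 higher and 1 lower (median 0.48), with Ctsz at 616 and 2306 CPM (3.74) and Lgmn at 2.54-fold, and transcription factors had 0 of 7 higher and 2 lower (median -0.26). Among interferon gamma genes of the DCs 2 of 10 were higher and 2 lower (median -0.09), and Irf1, an interferon-induced factor, was at 669 and 255 CPM (0.38). In plasmacytoid DCs loading genes had 1 of 12 higher (Hspa8, 1.67) and 4 lower (median -0.05), transcription factors 2 of 12 and 2 (median 0.04), and interferon gamma genes 0 of 9 in either direction (median -0.12).

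In marrow monocytes loading genes had 4 of 13 higher and 1 lower, with a median log2 ratio of 0.50. Cstb, an inhibitor of cathepsins, was at 344 and 1109 CPM (3.22) and Ctsb at 495 and 998 (2.02), with Ctsl at 479 and 239 (0.50) and Ifi30 at 0.91. Transcription factors had 0 of 13 higher and 4 lower (median -0.13), with Irf4 at 9.77 and 2.87 CPM (0.29) and Nfyb at 67.3 and 26.4 (0.39). Interferon gamma genes had 3 of 11 higher and 0 lower (median 0.24), with Socs1 at 6.62 and 18.9 CPM (2.86). Uptake receptors had 4 of 7 higher and 0 lower (median 0.71), led by Ly75 at 2.39 and 16.2 CPM (6.80) and Clec9a at 2.74-fold.

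In marrow leukaemia cells loading genes had 7 of 13 higher and 3 lower (median log2 ratio 0.83), with Ifi30 at 22.4 and 142 CPM (6.34) and March1 at 2.88-fold, Lgmn at 2.72 and 0.553 CPM (0.20) and Ctsh at 20.1 and 7.14 (0.36). Transcription factors had 2 of 12 higher (Kat2b 2.07, Rfxap 1.55) and 2 lower (Irf8 at 38.5 and 13.3 CPM, 0.35, and Rfx5 at 0.63), with a median of 0.03. Interferon gamma genes had 5 of 12 higher and 1 lower (median 0.37), with Ifngr1 at 275 and 134 CPM (0.49). Uptake receptors had 7 of 8 higher and 1 lower (median 1.48). Clec9a, a receptor of cross-presenting DCs, had 3 UMIs in BM-Ctrl, at 0.033 CPM, and was at 5.68 CPM in BM-shPrmt9, while Fcgr3 was at 118 and 271 CPM (2.30) and Fcgr1 at 0.747 and 0.332 (0.44).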

How the data were processed

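The authors deposited raw counts of UMIs, by gene and barcode, for whole bone marrow and spleen cells, made from 10x 3′ v2 libraries with Cell Ranger (6.0.2 in the matrix header, 6.1.1 in the submitters' processing notes) on mm10. From these counts, barcodes under 200 genes or over 20% mitochondrial UMIs were dropped, and the 744, 999, 640 and 520 cells (BM-Ctrl, BM-shPrmt9, Spleen-Ctrl, Spleen-shPrmt9) with the highest Scrublet scores, 0.8% per 1000 cells, were left out as doublets, since Scrublet's own threshold called 128, 0, 1 and 190. Cells were gated on markers: at least 4 B cell markers and 1000 CPM of them for B cells, Siglech and 5 markers for plasmacytoid DCs, 3 markers and Cst3 for conventional DCs, Csf1r and 5 markers for monocytes, Csf1r and 2 markers for macrophages, and for leukaemia cells at least 3 markers, Hoxa9 and Hoxa10 among them, and 100 CPM of the markers. Monocytes also had at least 2 of Ccr2, F13a1 and Fn1. Macrophages had under 2 of these and at least 2 of the monocyte markers Ms4a6c, Treml4, Ace, Clec4a3, Cx3cr1 and Klf4. A cell that met 2 gates was left out. Gate numbers were set after marker values, not those of the 9 genes, had been seen, and rebuilt names alone can make results differ from the study's.

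UMIs were summed per gate and library and divided by the sum of all genes (CPM). The ratio of CPM carries an exact conditional 95% interval, a level an exact Poisson one and a share an exact binomial one. The step was tested on simulated data. Leiden clusters (2991 genes without the members, 50 components, 15 neighbours, resolution 1) gave 41 groups. Software was python 3.11.15, scanpy 1.11.5, scikit-learn 1.9.0, igraph 0.11.9, scipy 1.17.1 and, for TMM factors, edgeR 4.0.16 in R 4.3.3. Alternatives changed the gate, cell filter, scaling, minimum of UMIs and single cells. All 9 genes are named in each comparison, and of each pathway list the 2 highest and 2 lowest ratios in the comparisons described in full, except that some genes are not reported here. The members, lists and markers were chosen with earlier results of these data known. The authors' cell labels were not used here.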

Additional observations from a re-analysis of the deposited data

Results flagged for a closer look

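Several members moved in opposite directions in the 2 tissues, as ratios of shPrmt9 to Ctrl whose intervals lay on opposite sides of 1. In B cells H2-Ab1 was at 1.09 in bone marrow and 0.289 in spleen, H2-Eb1 at 1.15 and 0.30, and H2-DMb1 at 1.46 and 0.452. In leukaemia cells the sum of the 9 genes was at 1.14 and 0.338, H2-Ab1 at 2.24 and 0.30, H2-Eb1 at 1.44 and 0.130, and H2-DMb1 at 1.17 and 0.498. As given above, H2-Ab1 and H2-Eb1 of marrow leukaemia cells were near or under their granulocyte levels. In the spleen the sum was near that of cells that do not present antigen, which was also lower in Spleen-shPrmt9. The gated leukaemia cells of the spleen carried far more granulocyte markers than those of the marrow. With 1 library in each group these differences were not tested, and the marrow and spleen libraries came from different animals.

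H2-DMa was also counted in T cells, a class outside the comparisons, at 107.7 CPM in Spleen-Ctrl, above the 2.23 CPM of erythroid cells of the same library.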

How the results depend on the processing

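The ratio of the summed 9 genes was recomputed in 8 comparisons. With Leiden clusters in place of gates it was 0.842 (B cells, marrow), 0.273 (B cells, spleen), 0.449 (spleen DCs), 1.47 (plasmacytoid DCs), 3.55 (monocytes), 0.140 (spleen macrophages), 1.03 (leukaemia cells, marrow) and 0.273 (leukaemia cells, spleen). A stricter gate gave 0.297 for spleen B cells, 0.122 for spleen DCs and 1.59 for plasmacytoid DCs, and no value for spleen macrophages. No cell filter gave 0.802 and 0.289 for B cells, 1.60 for plasmacytoid DCs and 2.23 for monocytes. TMM scaling gave 0.919 and 0.340 for B cells, 0.262, 1.58 and 2.23 for spleen DCs, plasmacytoid DCs and monocytes. A mean over cells gave 0.787 and 0.400 for B cells, 2.21 for monocytes, 1.20 and 0.237 for leukaemia cells. With the top cell of both libraries left out it was 0.212 in spleen DCs, 1.48 in plasmacytoid DCs and 0.885 in spleen macrophages, and without cells with 2 B cell markers 1.67 in plasmacytoid DCs and 2.22 in monocytes, with under 10 cells left in spleen DCs, macrophages and leukaemia cells.

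The remaining settings were chosen after seeing the data. UMIs per cell gave 1.70 and 0.723 for B cells in marrow and spleen, 0.337 for spleen DCs, 1.95 for plasmacytoid DCs, 2.83 for monocytes, 0.60 for spleen macrophages, and 1.01 and 0.266 for leukaemia cells. Cluster 16 gave 1.01 and 0.841 for B cells, cluster 33 gave 1.59 for plasmacytoid DCs and cluster 29 gave 1.17 for macrophages. B cells of 2000 to 5000 UMIs gave 0.164 and 0.402, of 5000 to 10000 0.962 and 0.736 and of 10000 to 20000 2.43 and 0.658, spleen B cells of at least 20000 UMIs gave 0.324, and spleen B cells without cluster 18 gave 0.517. With the top cell of 1 library alone left out, the ratio was 0.195 in spleen DCs (Spleen-shPrmt9) and 1.09 in spleen macrophages (Spleen-Ctrl). The side of the 1.5-fold threshold was kept in 7 of 8 comparisons with Leiden clusters, 8 of 8 with TMM, a mean over cells and no filter, and 6 of 8 with UMIs per cell and with the top cells of both libraries left out. With a minimum of 1 UMI, 2 members instead of 1 were lower in marrow leukaemia cells.

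Shares move with depth. Unthinned, H2-Aa was detected in 69.0%, 70.5%, 98.4% and 72.3% of B cells (thinned 62.2%, 56.7%, 92.3% and 49.3%; BM-Ctrl, BM-shPrmt9, Spleen-Ctrl, Spleen-shPrmt9), H2-DMb1 in 75%, 79.4%, 58.8% and 34.4% of leukaemia cells, and H2-Aa in 11.4%, 6.61%, 29.4% and 14.1% of leukaemia cells. No paired analysis was possible because each group had 1 library, and for the same reason no replicate could be left out.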

Other observations

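Plasma cells, which are known to silence Ciita, numbered 0 in BM-Ctrl, 5 in BM-shPrmt9, 15 in Spleen-Ctrl and 64 in Spleen-shPrmt9. Their summed class II level was 2300, 7608 and 3368 CPM in the 3 libraries that held them, and Cd74 made up 2115, 5211 and 2337 CPM of it. In T cells the sum was 231 CPM in BM-Ctrl, 228 in BM-shPrmt9, 384 in Spleen-Ctrl and 177 in Spleen-shPrmt9, and H2-DMa made up 46.4, 46.7, 107.7 and 46.4 CPM. RNA with the B cell ratio of class II to B cell markers would hold 98.9% and 71.8% of the members' UMIs in the T cells of the 2 spleens. These shares are of the summed UMIs and do not hold for H2-DMa on its own.

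Over 25 points of a class in a library with at least 50 cells, the genes whose log2 levels were most like the mean of the members were Rnase6 (Pearson's r = 0.94), Hmgn3 (0.93) and Ly86 (0.93), followed by Slc46a2, Acsf2, Rftn1, Gm15987, Id3, Trim7 and Vav2. Among the members, likeness to the mean of the other 8 was highest for H2-Aa (0.97) and lowest for H2-DMb1 (0.67). The points share libraries, and these values are a description.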
